A study of Mus musculus with 9 samples.

Results

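*Sox4*, *Sox11* and *Sox12* are the 3 genes of the SoxC group of transcription factors. They were taken by name as the rows of these genes in the 9 deposited single-cell matrices, so that 3 of 17487 genes with a row in at least 1 library were followed; all 3 had a row in each of the 9 libraries. The libraries were made from microdissected neocortex of mouse embryos at E18.5 with a droplet kit that counts the 3′ ends of transcripts as unique molecular identifiers (UMIs). There were 5 libraries labelled wild type (WT) and 4 labelled Tcf4 knockout (KO), all from littermates of crosses between heterozygous Tcf4ex4WT/lacZ mice. In KO embryos both *Tcf4* alleles held a cassette of lacZ and neomycin resistance upstream of exon 4, which removes the long TCF4B isoform in all cells and leaves shorter isoforms such as TCF4A, so that the group models the loss of TCF4B and not of the whole gene. Genotypes were compared between WT2, WT3 and WT4 and the libraries KO4 and KO5, and the other 4 libraries are described beside them. By the study's methods, cortices were dissociated singly and mice were analysed one by one, so that a library stands for 1 animal. In comparisons of genotypes within a class, p-values measure the spread between these few animals. Where library is a term of the fit, they measure how far differences between classes vary from animal to animal.

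SoxC proteins bind DNA through a high mobility group box and carry a strong activation domain at the C terminus. In the embryonic cortex they are known for switching on neuronal genes as cells leave the progenitor state, with Sox4 linked to the intermediate progenitor stage and Sox11 to neuronal differentiation and axon growth, while Sox12 is the weakest activator of the group. TCF4, a broadly expressed basic helix-loop-helix factor, binds E-boxes, and the study asks which partners, SOX11 among them, act with it in the neurons that project across the midline. The SoxC genes were therefore followed from progenitors to newborn neurons and on to upper layer, deep layer and GABAergic neurons.

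In the GENCODE annotation of GRCm38, *Sox4* (ENSMUSG00000076431) lies on the minus strand at chr13:28948919-28953713, *Sox11* (ENSMUSG00000063632) on the minus strand at chr12:27334264-27342574 and *Sox12* (ENSMUSG00000051817) on the minus strand at chr2:152393611-152398063. *Sox4* overlaps 1 other gene at its 3′ end, the long intergenic noncoding RNA *Gm26735* on the plus strand at chr13:28943048-28951671, and whether the counting used strand is not given in the sources used here; *Sox11* and *Sox12* overlap none. Since TCF4 binds E-boxes and these are the genes measured in its knockout, the upstream sequence of each is shown with the letters CANNTG (an E-box, which reads the same on both strands) in capitals. Each run holds 200 bases and ends 50 bases before the start of the gene in RefSeq, which is not the GENCODE start given above, and was taken from RefSeq promoters on GRCm38.p6, at chr13:28953750-28953949, chr12:27342769-27342968 and chr2:152398097-152398296, all read 5′ to 3′ on the minus strand.
Sox4: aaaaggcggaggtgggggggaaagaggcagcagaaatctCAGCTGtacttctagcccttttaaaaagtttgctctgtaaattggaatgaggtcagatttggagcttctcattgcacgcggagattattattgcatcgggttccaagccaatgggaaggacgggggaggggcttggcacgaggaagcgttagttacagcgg
Sox11: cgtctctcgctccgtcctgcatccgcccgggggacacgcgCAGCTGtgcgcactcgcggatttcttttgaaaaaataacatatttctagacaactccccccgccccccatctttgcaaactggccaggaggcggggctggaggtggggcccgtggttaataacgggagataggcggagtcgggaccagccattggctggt
Sox12: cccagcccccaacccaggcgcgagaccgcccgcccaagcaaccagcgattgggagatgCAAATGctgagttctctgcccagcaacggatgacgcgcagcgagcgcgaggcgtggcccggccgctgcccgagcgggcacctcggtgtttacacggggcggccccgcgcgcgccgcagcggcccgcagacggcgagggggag
Each window held 1 match, CAGCTG in *Sox4* and in *Sox11* and CAAATG in *Sox12*. Of 32851 promoter windows of the same length, 59.0% held at least 1 match, so that the presence of the motif did not set the SoxC genes apart.

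After filters, 118 to 6173 cells per library were kept, with 335764 to 29573654 UMIs in all and a median of 2217 to 4359 UMIs per cell. *Tcf4* stood at 9.29 and 7.59 UMIs per 10000 in KO4 and KO5, below the 12.2, 12.6 and 12.2 of WT2, WT3 and WT4; the libraries labelled WT1 (4.65), WT5 (7.20) and KO1 (16.7) went against their labels. The choice of libraries compared was made with these levels known, and values with all libraries as labelled are among the alternatives. The study's own methods also kept 3 WT and 2 KO samples. They left out samples with few cells and a WT animal whose *Tcf4* was lower than that of the KO. Which libraries these were is not stated there. The counted 3′ end of *Tcf4* is shared by isoforms that the cassette leaves, so that these values check the labels only in part. More than 1% haemoglobin UMIs removed 13.9% of cells from KO4 and 40.4% from KO5, and at most 4.34% from the other libraries. KO5 was the only library with Y-linked UMIs (545) and had no *Xist* UMI. Any pair of libraries shared 0 to 46 cell barcodes. Cells were gated by marker genes, none of them a *Sox* gene. Genes that were no gate marker showed how far the gates separated the cells. *Fabp7*, a fatty acid binding protein of radial glia, had 146, 203 and 146 UMIs per 10000 in the radial glia-type gate of WT2, WT3 and WT4, against 50.5 and 41.6 in KO4 and KO5. *Sparc*, a matrix protein abundant in vessels, had 9.86 and 5.72 in the endothelial gate of KO4 and KO5, below the 36.8, 35.6 and 22.0 found there in the WT libraries compared. The gates were therefore less distinct in both KO libraries, and also in WT5, where the same genes stood at 25.7 and 9.48. These values bear on each comparison of genotypes, and their part in the results was not tested.

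Over all kept cells, *Sox4* followed the form in which a library was deposited and not the genotype. The libraries deposited as natural log values had 8.27, 8.94 and 8.63 UMIs per 10000 (WT1, WT2 and WT3) and 9.66 and 6.04 (KO1 and KO2). The libraries deposited as whole counts had 16.1 and 14.0 (WT4 and WT5) and 13.0 and 14.9 (KO4 and KO5), so that each of these 4 lay above each of the other 5. Such a split was found for 12.1% of 1847 genes in either direction and for 5.90% with the counts higher (the 1847 genes had at least 1 UMI per 10000 in 2 or more libraries). *Sox11* showed no split, with 21.6, 26.2 and 35.1 in WT1, WT2 and WT3, 39.4 and 25.1 in KO1 and KO2, 30.7 and 31.4 in WT4 and WT5, and 31.7 and 30.2 in KO4 and KO5. *Sox12* was between 0.531 and 1.01 in all 9 libraries, and the 2 forms overlapped. The noncoding *Gm26735* that overlaps *Sox4* had 0.200 to 0.673 in the log libraries and 0.394 to 1.04 in the count libraries, which overlapped, and its 3 highest levels were those of WT5, KO4 and KO5. What else differed between the 2 sets of libraries cannot be told apart from the form of deposit. Among the libraries compared, WT2 and WT3 were log values and WT4, KO4 and KO5 were counts, so *Sox4* was also read within the counts alone.

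**Figure D1:**
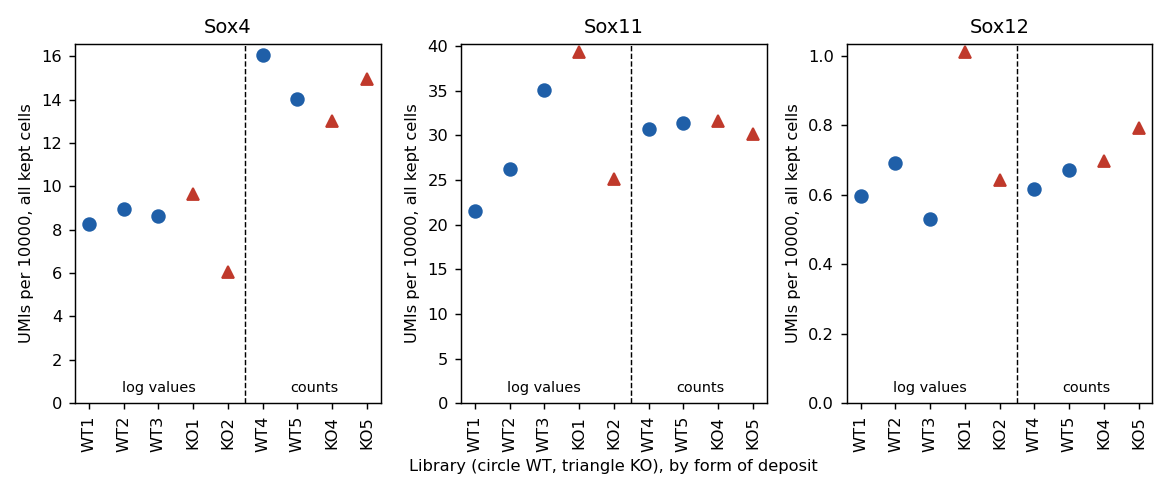
UMIs per 10000 of *Sox4*, *Sox11* and *Sox12* over all kept cells of each of the 9 libraries, with the libraries deposited as log values left of the dashed line and those deposited as counts right of it. For *Sox4* the count libraries lie between 13.0 and 16.1 and the log libraries between 6.04 and 9.66, while the 2 sets overlap for *Sox11* and *Sox12*.

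The first comparison asks where along the neuronal lineage the SoxC genes are transcribed in WT cortex. Within that lineage *Sox11* was lowest in radial glia-type cells, rose through intermediate progenitors to a peak in newborn neurons and was lower again in layer neurons. In newborn neurons it had 41.6, 48.3 and 48.1 UMIs per 10000 in WT2, WT3 and WT4, a mean of 46.0 ± 3.79 (SD, n = 3). In progenitors (cycling Dlx-negative cells, radial glia-type cells and intermediate progenitors together, without the cycling Dlx-positive cells) it had 18.2, 20.7 and 16.4. All 3 newborn values lay far above all 3 progenitor values. The difference was 1.28 on the log2(UMIs per 10000 + 1) scale (standard error 0.06, adjusted p = 1.96e-11, limma with Benjamini-Hochberg adjustment and library as a term), where 27.5% of 9727 genes were called in either direction and 11.0% higher. Within the progenitors, *Sox11* stood at 10.5, 10.5 and 10.8 in radial glia-type cells, which were gated by markers without a measure of position. It stood at 27.7, 29.1 and 27.0 in intermediate progenitors, which produce neurons.

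From newborn to upper layer neurons, *Sox11* fell by 0.65 (standard error 0.06, adjusted p = 2.34e-06, limma), and 4.13% of genes were called in that contrast. The upper layer values were 24.4, 33.6 and 29.2. From newborn to deep layer neurons it fell by 0.80 (standard error 0.06, adjusted p = 1.69e-07, limma), where 6.89% of genes were called. The deep layer values were 21.8, 30.2 and 26.3, and they overlapped those of the upper layer. In order of the WT mean, newborn neurons were followed by GABAergic cells (30.4 ± 1.38), upper layer neurons (29.1 ± 4.61), intermediate progenitors (27.9 ± 1.06), cycling Dlx-positive cells (27.6 ± 3.46) and deep layer neurons (26.1 ± 4.22), with all errors as SD and n = 3. The ranges of these 5 classes overlapped one another. Cycling Dlx-negative cells (19.5 ± 1.43), radial glia-type cells (10.6 ± 0.202) and endothelial cells (5.94 ± 2.96) came below them.

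*Sox4* had the same order of classes at its ends, with a flatter course after the newborn stage. It had 10.8, 10.5 and 20.3 UMIs per 10000 in newborn neurons of WT2, WT3 and WT4, and 7.28, 6.15 and 9.91 in progenitors. The groups did not overlap, but within each class WT4, the count library, was the highest. With library as a term, newborn neurons exceeded progenitors by 0.72 (standard error 0.07, adjusted p = 8.28e-08, limma). *Sox4* was already at 11.01, 9.62 and 17.9 in intermediate progenitors, close to its newborn level in each library, whereas *Sox11* in that class was well below its newborn level. It was lower in upper layer than in newborn neurons by 0.28 (adjusted p = 0.0263) and lower in deep layer neurons by 0.29 (adjusted p = 0.0145), both with a standard error of 0.07 in limma. These last differences were smaller than those of *Sox11*, and both calls were lost when cells were thinned to 1800 UMIs (adjusted p = 0.187 and 0.0746) and without WT2 (0.0646 and 0.0535) or WT4 (0.196 and 0.0826). Without WT3 only the upper layer call was lost (adjusted p = 0.0817). Radial glia-type cells had 5.40, 2.54 and 6.67 and endothelial cells 3.14, 2.28 and 5.02.

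*Sox12* was detected at a low level in each class. It had 0.988, 0.507 and 0.668 UMIs per 10000 in newborn neurons and 0.321, 0.326 and 0.4995 in progenitors of WT2, WT3 and WT4. The lowest newborn value lay just above the highest progenitor value. The difference of 0.31 was called (standard error 0.08, adjusted p = 0.00489, limma), and it was lost without WT2 (0.17, adjusted p = 0.0930). Neither layer class differed from newborn neurons beyond the spread, with changes of -0.02 (adjusted p = 0.948) in the upper layer and -0.11 (adjusted p = 0.455) in the deep layer. The endothelial values of 0.444, 0 and 0.287, from 21, 13 and 41 cells, overlapped those of progenitors. A progenitor level of *Sox12* above that of endothelial cells was thus not detectable at this depth and with so few endothelial cells.

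**Figure D2:**
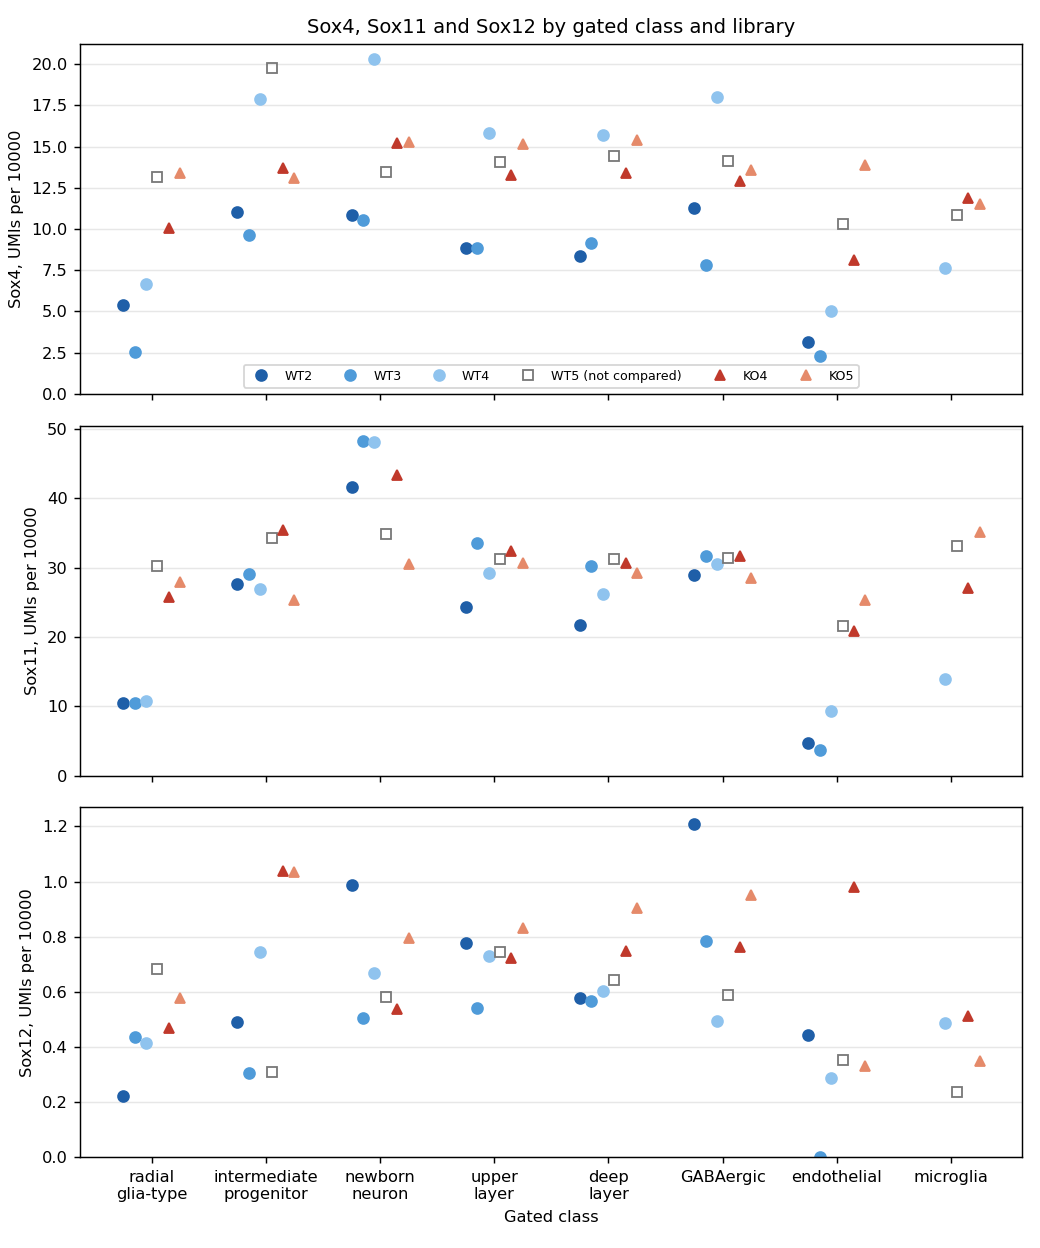
UMIs per 10000 of *Sox4*, *Sox11* and *Sox12* in 8 gated classes, 1 point per library with at least 10 cells (circles WT2 to WT4, triangles KO4 and KO5, open squares WT5, which was not compared). In WT2 to WT4 *Sox11* peaks in newborn neurons and is lowest in endothelial cells, while in KO4, KO5 and WT5 the endothelial points lie between 20.9 and 25.3 and the classes stand closer together.

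The second comparison asks whether SoxC transcripts differ between KO and WT within a class of cells. In progenitors, *Sox11* and *Sox4* were higher in KO. *Sox11* had 28.3 and 27.9 UMIs per 10000 in KO4 and KO5 against 18.2, 20.7 and 16.4 in WT2, WT3 and WT4, and *Sox4* had 11.3 and 13.1 against 7.28, 6.15 and 9.91. *Sox12* had 0.624 and 0.630 against 0.321, 0.326 and 0.4995. For all 3 genes the lower KO value exceeded the highest WT value, as was the case for 13.5% of 8994 genes tested in progenitors. *Sox11* rose by 0.59 (standard error 0.16, adjusted p = 0.0251, limma) and *Sox4* by 0.61 (standard error 0.17, adjusted p = 0.0318, limma), while *Sox12* differed by 0.24 (standard error 0.09, adjusted p = 0.0804, limma). Thus 2 of 3 members were called, both of them higher, where 11.0% of all genes tested were called in either direction and 3.84% higher.

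Cells outside the neuronal lineage also had higher levels of *Sox11* and *Sox4* in the KO libraries, as values without a test. In endothelial cells *Sox11* had 20.9 and 25.3 UMIs per 10000 in KO4 and KO5 against 4.75, 3.76 and 9.31 in the WT libraries. In microglia it had 27.1 and 35.1 in KO4 and KO5 and 14.0 in WT4, the only WT library compared with at least 10 such cells. WT5, labelled WT, had 30.7 in progenitors, 21.6 in endothelial cells and 33.1 in microglia, each closer to the KO libraries than to the WT libraries compared. For *Sox4* the endothelial values were 8.11 and 13.9 in KO4 and KO5 against 3.14, 2.28 and 5.02. For *Sox12* they were 0.979 and 0.331 against 0.444, 0 and 0.287, and the genotypes overlapped. In the progenitor gate itself, 7 of 7 microglial and 5 of 7 endothelial markers were higher in both KO libraries than in each WT library, with summed levels of 0.254 to 0.654 against 0.0175 to 0.0751 and of 0.486 to 0.960 against 0.0631 to 0.191. *C1qc*, *C1qb*, *Csf1r*, *Cx3cr1* and *Fcer1g* among the former and *Cdh5* and *Igfbp7* among the latter were at 0 in 1 or more of the libraries. Of the 8 upper layer markers, 4 were higher in both KO libraries than in each WT library and 1 was lower. They summed to 10.0 to 10.7 in KO progenitors and to 3.11 to 4.30 in WT progenitors. Of the 8 deep layer markers 3 were higher in both KO libraries and none was lower, as was the case for the 8 GABAergic markers. The newborn neuron markers went the other way, with 4 of 8 lower in both KO libraries and none higher. Their sums were 2.48 to 3.14 in KO and 3.30 to 3.98 in WT. Of the 5 oligodendrocyte lineage markers, 2 were lower and none was higher. In both KO libraries 6 of 8 radial glia-type markers were lower (sums of 10.0 to 11.0 against 20.1 to 26.8). The same held for 7 of 8 intermediate progenitor markers and 7 of 10 cycling markers, and none of these 3 lists had a marker higher in both. The part of these shifts in the rise of *Sox11* and *Sox4* was not tested. Radial glia-type cells were 174 of 488 and 104 of 220 progenitors in KO4 and KO5, and 75 of 222, 76 of 294 and 314 of 672 in WT2, WT3 and WT4. Of the gates that make up the progenitors, radial glia-type cells showed the widest gap, with *Sox11* at 25.8 and 27.9 in KO and 10.5, 10.5 and 10.8 in WT, whereas the genotypes overlapped in intermediate progenitors (35.5 and 25.3 against 27.7, 29.1 and 27.0).

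With the form of deposit as a term, the KO change rests on WT4 alone against KO4 and KO5, and WT4 is assumed to vary like the other libraries. In that fit *Sox4* differed by 0.27 (adjusted p = 0.470, limma) and *Sox11* by 0.74 (adjusted p = 0.0083), a comparison with 1 WT library. Both calls were lost without KO4 (adjusted p = 0.201 for *Sox11* and 0.147 for *Sox4*), without KO5 (0.337 and 0.409), without WT2 (0.0621 and 0.0777) and with cells thinned to 1800 UMIs (0.0508 and 0.0634), and that of *Sox4* also without WT3 (0.0674).

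In newborn neurons no SoxC gene was called by limma, edgeR or DESeq2, and 0 of 3 had an unadjusted p under 0.05, where 4.73% of 8548 genes were called by limma. *Sox11* had 43.4 in KO4 and 30.6 in KO5 against 41.6, 48.3 and 48.1 in WT2, WT3 and WT4. KO4 lay within the range of WT and only KO5 below it. The change was -0.32 (standard error 0.20, adjusted p = 0.348, limma), and it moved to -0.57 without KO4 and to -0.08 without KO5. *Sox4* had 15.2 and 15.3 against 10.8, 10.5 and 20.3, a change of 0.19 (standard error 0.22, adjusted p = 0.665), and *Sox12* differed by -0.04 (adjusted p = 0.883). Newborn neurons were 4.69% and 3.91% of kept cells in KO4 and KO5, 2.70% in WT5 and 11.1%, 22.4% and 14.1% in WT2, WT3 and WT4.

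In upper layer neurons, which include many cells that project across the midline, no SoxC gene was called by limma, edgeR or DESeq2 (0 of 3 with an unadjusted p under 0.05 in limma and edgeR, 1 of 3 in DESeq2), where 2.70% of 8298 genes were called by limma. *Sox11* had 32.4 and 30.7 in KO4 and KO5 against 24.4, 33.6 and 29.2, a change of 0.13 (standard error 0.16, adjusted p = 0.697, limma). *Sox4* had 13.3 and 15.2 against 8.87, 8.85 and 15.8, with both KO values below that of WT4. Its change of 0.37 (standard error 0.22, adjusted p = 0.370) became -0.15 with the form of deposit as a term. Without WT4, when all WT libraries were log values and all KO libraries counts, *Sox4* was called higher in newborn neurons (0.48, adjusted p = 0.0368) and upper layer neurons (0.62, adjusted p = 0.0168).

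The remaining classes gave no call by limma, edgeR or DESeq2 either. At an unadjusted p under 0.05, 0 of 3 passed in limma in each of them, and in deep layer neurons 3 of 3 passed in edgeR and 2 of 3 in DESeq2. In deep layer neurons, where 0.578% of 8648 genes were called, *Sox11* had 30.7 and 29.2 against 21.8, 30.2 and 26.3 and changed by 0.20 (standard error 0.17, adjusted p = 0.709, limma), *Sox4* by 0.40 (adjusted p = 0.573) and *Sox12* by 0.21 (adjusted p = 0.561). In GABAergic cells, where 1.20% of 8786 genes were called, *Sox11* had 31.7 and 28.5 against 29.0, 31.7 and 30.6. Its change of -0.02 (standard error 0.19, adjusted p = 0.985) was the smallest of the 3 genes there.

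**Figure D3:**
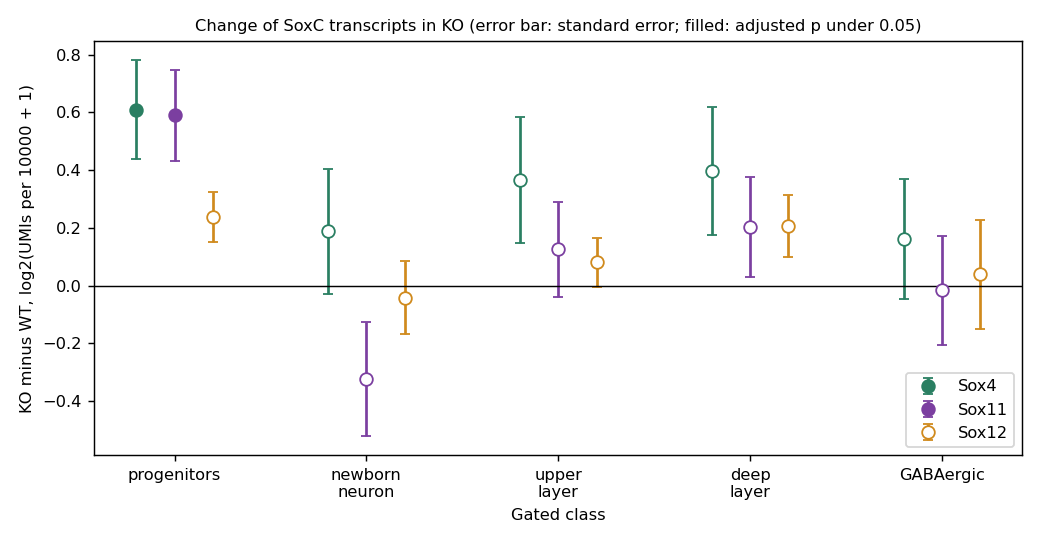
KO minus WT on the log2(UMIs per 10000 + 1) scale for *Sox4*, *Sox11* and *Sox12* in 5 gated classes, with standard errors from limma over 2 KO and 3 WT libraries and filled points for adjusted p under 0.05. *Sox4* (0.61) and *Sox11* (0.59) are filled in progenitors, and each other point is open.

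The third comparison asks whether the KO change of a SoxC gene differs between newborn and upper layer neurons. For *Sox11* it did, by 0.45 (upper layer minus newborn, standard error 0.09, adjusted p = 0.00494, limma with library as a term), where 1.40% of 9016 genes were called. Within libraries, the upper layer level was 0.585, 0.696 and 0.607 of the newborn level in WT2, WT3 and WT4, against 0.746 and 1.003 of it in KO4 and KO5. Each KO ratio lay above each WT ratio, and WT5 (0.895) lay with the KO libraries. The call was lost without KO5 (0.24, adjusted p = 0.457), WT2 (0.40, adjusted p = 0.136) or WT4 (0.43, adjusted p = 0.113), and with at least 3 markers per cell (0.44, adjusted p = 0.282). KO5, without which the difference was smallest, is also the library with Y-linked UMIs, and the part of sex was not tested. The same test gave 0.18 for *Sox4* (adjusted p = 0.316) and 0.12 for *Sox12* (adjusted p = 0.679). Over radial glia-type cells, intermediate progenitors, the newborn, upper and deep layer neurons, GABAergic cells, endothelial cells and microglia, *Sox11* in KO5 ranged only from 25.3 to 35.1, and in WT4 from 9.31 to 48.1.

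The share of cells with a SoxC UMI was compared after each cell was thinned to 1800 UMIs, because WT3 and WT4 were deeper than the other libraries. In newborn neurons, 98.9%, 99.3% and 99.0% of cells had a *Sox11* UMI in WT2, WT3 and WT4, against 99.5% and 100% in KO4 and KO5. In progenitors the shares were 85.2%, 86.2% and 82.1% in WT and 94.8% and 97.3% in KO. The latter difference of 11.5 percentage points had the smallest p that an exact 2-sided permutation test of 3 against 2 libraries allows (p = 0.1, adjusted p = 0.429 over 15 comparisons), so the design could not reach 0.05. *Sox4* UMIs were found in 63.7%, 62.5% and 72.5% of WT progenitors and in 77.1% and 86.3% of KO progenitors (p = 0.2, exact permutation test). In endothelial cells 55.0%, 38.5% and 56.8% of cells had a *Sox11* UMI in WT and 92.9% and 100% in KO, at the same 1800 UMIs per cell. In KO4 and KO5 the progenitor, newborn and endothelial shares were all at 92.9% or more, whereas in WT the progenitor share lay well above the endothelial share. Shares so near 100% leave little room for a difference between classes. The *Sox11* levels were 28.3 UMIs per 10000 in progenitors and 20.9 in endothelial cells of KO4, and 27.9 and 25.3 in KO5. The part of background in the KO shares was not tested. Unthinned, the *Sox11* shares of progenitors averaged 94.7% in WT and 99.2% in KO. *Sox12* UMIs were seen in 4.93%, 5.30% and 7.28% of WT progenitors and 9.48% and 10.4% of KO progenitors. These lay within the endothelial range of 0% to 15.0% over the 5 libraries. That range rests on 13 to 70 endothelial cells per library, too few to fix the endothelial share for *Sox12*. Intervals of such shares would cover counting error only and are not given where libraries are the replicates.

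**Figure D4:**
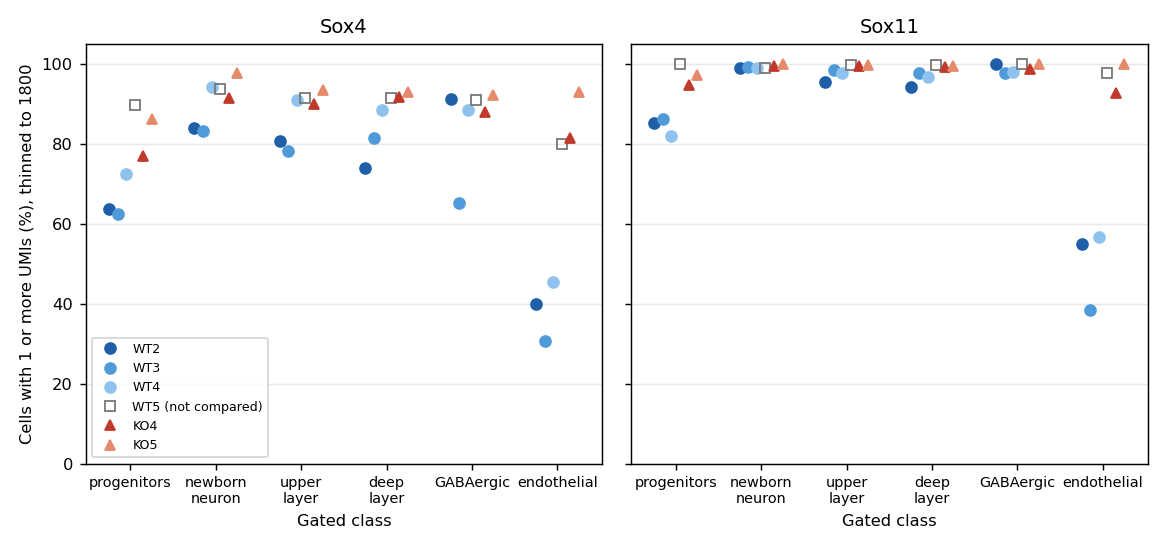
Percent of cells with 1 or more UMIs of *Sox4* (left) and *Sox11* (right) after thinning each cell to 1800 UMIs, by gated class, 1 point per library (circles WT2 to WT4, triangles KO4 and KO5, open squares WT5). The endothelial points of *Sox11* lie between 38.5% and 56.8% in WT2 to WT4 and between 92.9% and 100% in KO4, KO5 and WT5.

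After thinning, *Sox11* UMIs were found in 98.9%, 99.3% and 99.0% of newborn neurons in WT2, WT3 and WT4. *Sox4* UMIs were found in 83.9%, 83.2% and 94.2% of them. With *Sox11* in almost each cell, the share with both follows that of *Sox4* and cannot show whether the 2 genes go together. At least 1 UMI of both was found in 82.8%, 82.8% and 93.9% of these newborn neurons. The share with both was 42.5%, 21.0% and 50.8% in radial glia-type cells and 25.0%, 0% and 29.5% in endothelial cells. In KO4 and KO5 the share was 90.9% and 97.7% in newborn neurons and 75.7% and 93.1% in endothelial cells. UMIs of all 3 SoxC genes were found in 14.0%, 7.02% and 9.75% of newborn neurons. Over 9 classes with at least 10 cells in each of WT2, WT3 and WT4, the WT means of *Sox4* and *Sox11* had a Pearson correlation of 0.978, given as a description of 9 points from the same libraries. Of 2759 genes that were no gate marker, *Sox11* was the gene second most like *Sox4*, after *Cript* (0.997) and before *Tsg101* (0.975). The genes most like *Sox11* were *Zcchc11* (0.988), *Tsg101* (0.987) and *Sox4*. Those most like *Sox12* were *Dcx* (0.964), which encodes the microtubule protein doublecortin of migrating neurons, *Fam103a1* (0.964) and *Ube3a* (0.961). *Sox4* and *Sox11* stood at places 91 and 87 of that list, with correlations of 0.882 and 0.884.

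Most of the other *Sox* genes tested were lower in newborn neurons than in progenitors, whereas the SoxC genes were higher. Of 16 listed, 14 had a row in at least 1 library and 7 passed the filter on low values in the WT classes. From progenitors to newborn neurons 6 of these 7 fell and none rose, with a median change of -0.48 against 0.0006 over all genes, of which 27.5% were called (1603 of 9727 lower). A gene could pass the filter through its progenitor values alone, and such a gene could hardly rise. The count of 6 of 7 was thus partly set by the filter. *Sox2*, which maintains neural stem cells, fell by 1.09 and *Sox9*, a factor of radial glia and astrocytes, fell by 1.02, and *Sox1*, *Sox6*, *Sox8* and *Sox21* were also called lower. In KO progenitors, 4 of 7 tested were lower than in WT and none was higher, namely *Sox2* (-0.51, adjusted p = 0.0079), *Sox6* (-0.32, adjusted p = 0.0256), *Sox21* (-0.30, adjusted p = 0.0205) and *Sox1* (-0.22, adjusted p = 0.0326), all from limma. Over all genes 11.0% were called in that class (647 of 8994 lower). With edgeR and DESeq2 none of these 7 *Sox* genes was called, although 5 and 4 had an unadjusted p under 0.05, and 0 were called by limma without KO4, without KO5, in cells under 4000 UMIs, without the filter on low values, with all libraries as labelled or with the replicate block. Thinned to 1800 UMIs 2 were called, and with the form of deposit as a term 1. In newborn, upper layer, deep layer and GABAergic cells 0 other *Sox* genes were called by limma, with 2 of 4, 5 of 5, 1 of 5 and 1 of 6 at an unadjusted p under 0.05. Their median limma changes were 0.12, 0.21, 0.07 and 0.05 in the same order, against -0.30 in progenitors. In upper layer neurons edgeR and DESeq2 each called 2, both higher in KO, and none in the other 3 classes.

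Of 5 genes described as targets of SoxC factors, *Tubb3*, *Dcx* and *Plxna2* are also named by the study from these libraries and *Fezf2* is a deep layer marker of the gates, so the list is not independent of the data. In WT, *Tubb3* (neuronal beta tubulin), *Dcx* and *Plxna2* (a semaphorin receptor) rose from progenitors to newborn neurons by 1.37, 1.01 and 0.85, as *Sox11* and *Sox4* did. *Tead2*, a transcription factor of the Hippo pathway, fell by 0.63. The adjusted p-values were 7.32e-11 for *Tubb3*, 3.50e-10 for *Dcx*, 8.78e-08 for *Plxna2* and 1.12e-06 for *Tead2*, while *Fezf2*, which specifies subcerebral projection neurons, changed by -0.06 and was not called. In KO newborn neurons *Dcx* fell by 0.66 (adjusted p = 0.0151) and *Plxna2* by 0.65 (adjusted p = 0.00787), where *Sox11* was not called and 4.73% of all genes were. WT5, with 3.93 UMIs per 10000 of *Dcx* and 0.766 of *Plxna2* there, stood with KO4 and KO5 (4.45 and 2.92, 1.45 and 0.927), and KO1 (9.54 and 2.31) did not. In KO progenitors *Tubb3* rose by 0.66 (adjusted p = 0.0126) and *Tead2* fell by 0.41 (adjusted p = 0.0167), in the class in which *Sox11* and *Sox4* rose. *Tubb3* was lower in KO upper layer neurons by 0.63 (adjusted p = 0.0399) and *Dcx* in KO GABAergic cells by 0.76 (adjusted p = 0.0198), and *Fezf2* was higher in upper layer neurons by 0.27 (adjusted p = 0.0174). In upper layer neurons WT5 again stood with the KO libraries, with *Tubb3* at 19.8 (19.0 and 20.2 in KO4 and KO5) and *Fezf2* at 0.375 (0.320 and 0.376). All of these values are from limma, over 2 KO and 3 WT libraries. Each of the 7 KO calls was lost without KO5 (adjusted p of 0.267 to 0.764) and with all libraries as labelled, and 5 of 7 were lost with edgeR's TMM, all but *Tubb3* in progenitors and *Fezf2*.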

How the data were processed

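Libraries were prepared with the Chromium 3′ v2 kit. The authors deposited whole UMI counts per gene and cell for WT4, WT5, KO4 and KO5, and natural log values of UMIs per 10000 for KO1, KO2 and the first 3 WT libraries. The submitters' processing notes name Cell Ranger 2.1.0, Seurat 2.3.4, R 3.6.0 and mm10. Use of strand in counting is not given in the sources used here. Whole UMIs were recovered from the log values (100% of values within 1e-06 of a whole number). The depth per library sets the precision of each level.

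Cells with 1000 to 5000 genes, 1800 to 10000 UMIs, under 6% mitochondrial and at most 1% haemoglobin UMIs were kept. Classes were gated by at least 2 markers (3 for cycling cells), with no doublet caller; leaving out cells of mixed markers was an alternative. For the levels and for limma, UMIs per 10000 of each cell were averaged over the cells of a library and class of at least 10 cells. UMIs summed over the same cells entered edgeR and DESeq2. The study's test took cells as replicates, whereas here the library was the replicate. Genes reaching 0.1 UMIs per 10000 in 2 or more of the libraries compared were tested as log2(UMIs per 10000 + 1) with limma 3.58.1 in R 4.3.3 and called at a Benjamini-Hochberg adjusted p under 0.05. Shares of cells were compared by an exact permutation test. Alternatives used edgeR 4.0.16 and DESeq2 1.42.0; scripts ran in Python 3.11.15 with numpy 2.4.6, scipy 1.17.1, pandas 2.3.3 and matplotlib 3.10.9, and the fits were tested on simulated data. Named genes were the members, called genes of 2 lists (16 other *Sox* genes, 5 targets) and the 3 genes most like each member; *Fabp7* and *Sparc* were chosen after their values were seen. One planned class of cells is not reported here. Members and lists were chosen with earlier results of these data known.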

Additional observations from a re-analysis of the deposited data

Results flagged for a closer look

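*Sox11* in progenitors of KO2 had 19.1 UMIs per 10000, apart from the other 3 KO libraries, and in its cycling Dlx-negative cells 12.1. KO1 stood above the other KO libraries for *Sox11* in ungated cells (44.1) and for *Sox12* in radial glia-type cells (1.21). WT5 had 30.3 for *Sox11* in radial glia-type cells, where the next WT library had 15.6. WT1 stood apart for *Sox12*, with 0.242 in deep layer neurons and 1.22 in ungated cells. These 7 of 51 groups were picked because 1 library lay far from the others of its genotype by Dixon's test, which chance gives in about 1 of 20 groups; the groups share cells and libraries.

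The KO change of *Sox11* differed between upper layer and newborn neurons by 0.45 (adjusted p = 0.00494, limma). WT5, which entered no comparison, had 21.6 UMIs per 10000 of *Sox11* in endothelial cells, above the highest of WT2, WT3 and WT4 (9.31), and 10.3 of *Sox4* (5.02).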

How the results depend on the processing

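Of 411 values recomputed for 42 results, 332 kept their direction and their side of the threshold, 38 lost a call, 3 gained one and 38 reversed. The terms for form of deposit and the unthinned shares were added after seeing the data. The cause was not tested.

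In KO progenitors *Sox11* lost its call without the filter on low values (0.59), thinned to 1800 UMIs (0.51), in cells under 4000 UMIs (0.56) and with all libraries as labelled (0.36). *Sox4* lost it in the same order (0.61, 0.49, 0.58, 0.0323), with edgeR's TMM (0.86) and with form as a term (0.27). With the form as a term *Sox4* reversed in newborn (-0.39), upper layer (-0.15), deep layer (-0.12) and GABAergic cells (-0.42). With all libraries as labelled *Sox11* (0.0344) and *Sox12* (0.0258) reversed in newborn neurons and *Sox4* in deep layer neurons (-0.0577). *Sox12* in newborn neurons also reversed with TMM (0.0468), RLE (0.0516), DESeq2 (0.0570) and no haemoglobin limit (0.0264). *Sox11* in GABAergic cells reversed with TMM (0.13), RLE (0.13), DESeq2 (0.13), thinning (0.0316), at least 3 markers (0.00037), mixed cells left out (0.0305) and no haemoglobin limit (0.00912), and *Sox12* with thinning (-0.29).

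The fit with the replicate block also changes the libraries, to those whose number occurs in both groups (WT3 leaves and WT1, WT5, KO1 and KO2 enter where they hold enough cells), so that the part of the block itself was not tested. In it *Sox11* in progenitors was 0.37 and not called (0.36 with all libraries and no block), *Sox4* reversed in progenitors (-0.0565), newborn (-0.11), deep layer (-0.12) and GABAergic cells (-0.25), and *Sox12* in newborn neurons (0.0330). Same-numbered libraries correlated at 0.0657, 0.375, 0.429 and 0.594 for numbers 1, 2, 4 and 5, so that 3 of 4 pairs were over 0.1. KO2 and KO5 correlated best with their own number, but KO1 with WT3 (0.232) and KO4 with WT5 (0.602), and pairing was not taken as given because 1 pair was under 0.1.

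Within WT, *Sox4* lost its calls against newborn neurons without the filter (upper -0.28, deep -0.29), thinned (-0.22, -0.25), under 4000 UMIs (-0.20, -0.27), with at least 3 markers (-0.33, -0.30) and without mixed cells (-0.23, -0.23). *Sox12* reversed in the upper layer with TMM (0.12) and in the deep layer with thinning (0.0016). The *Sox11* difference between the KO changes lost its call with at least 3 markers (0.44). Unthinned, the *Sox12* share difference reversed in newborn (-6.72 percentage points), upper layer (-6.72) and deep layer neurons (-1.52).

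Leaving out 1 library gave these ranges of the KO change for *Sox11*, *Sox12* and *Sox4*: progenitors 0.51 to 0.67, 0.21 to 0.30 and 0.47 to 0.78; newborn -0.57 to -0.08, -0.15 to 0.0707 and 0.0342 to 0.48; upper 0.0085 to 0.23, 0.02 to 0.13 and 0.24 to 0.62; deep 0.08 to 0.31, 0.14 to 0.27 and 0.24 to 0.66; GABAergic -0.0906 to 0.0567, -0.10 to 0.18 and -0.10 to 0.45. In WT the ranges were 1.17 to 1.34, 0.17 to 0.39 and 0.60 to 0.83 for newborn against progenitors, -0.73 to -0.61, -0.0638 to 0.0432 and -0.30 to -0.24 for upper against newborn, and -0.88 to -0.75, -0.20 to 0.000096 and -0.34 to -0.26 for deep against newborn. The difference between KO changes ranged over 0.24 to 0.66, 0.05 to 0.19 and 0.09 to 0.26.

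Counts of genes called over all alternatives ranged from 0 to 1736 in progenitors, 0 to 740 in newborn, 0 to 661 in upper layer, 0 to 149 in deep layer and 0 to 215 in GABAergic cells, from 1577 to 4319, 93 to 1550 and 121 to 1193 for the WT contrasts, and from 14 to 451 for the difference between KO changes.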
